A study of Mus musculus with 6 samples.

Results

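The genes described here are 33 genes of endoplasmic reticulum (ER) stress and the unfolded protein response, chosen by symbol from a list of pathway genes that was drawn up with earlier results of these data known. They are 33 of the 21956 genes in the deposited liver table, and all 33 passed the filter on low counts that left 13197 genes for testing. The list holds 24 genes of the ATF6/XBP1 arm (sensors, chaperones, disulfide isomerases, lectins and degradation genes) and 9 of the PERK-ATF4 arm.

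Livers of 6 mice were sequenced as bulk polyA RNA. The 3 knockout mice carried floxed alleles of Sting, the adaptor of cytosolic DNA sensing, and the Cre recombinase under the endothelial Cdh5 promoter (Sting fl/fl Cdh5-Cre+). The 3 control mice carried the same floxed alleles without Cre (Sting fl/fl Cdh5-Cre-). All 6 mice ate chow until 8 weeks of age and then CDAHFD, a high-fat diet without choline whose protein is replaced by amino acids and which produces steatohepatitis, for 10 weeks, so that no healthy liver is part of the comparison. Cre was in the knockout group alone, so the effect of Cre and the effect of the deletion cannot be told apart. The labels give both liver and sinusoidal endothelial cells as the source. Albumin (Alb) reached 89889 ± 6342 TPM in knockout livers and 77434 ± 10306 TPM in control livers, and the endothelial gene Pecam1 24.9 ± 1.43 and 26.1 ± 5.89 TPM (SD, n = 3 each), so the values are those of whole liver. In such tissue, fewer cells of a type and less RNA per cell cannot be told apart. The labels call the libraries of a group separate biological replicates, and p-values measure the spread between them.

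The unfolded protein response is the ER's answer to proteins that fail to fold. The sensor IRE1alpha (Ern1) splices Xbp1 mRNA into the form that encodes an active factor, ATF6 is cut in the Golgi to free a factor of its own, and both factors switch on chaperones, folding enzymes and the machinery that sends misfolded proteins out for degradation. The third sensor, PERK (Eif2ak3), phosphorylates eIF2alpha, which lowers protein synthesis and favours translation of ATF4. ATF4 then raises transcription of its targets, among them the death-linked factor CHOP (Ddit3). Hepatocytes secrete large amounts of protein and rely on this response. Gene-level RNA counts do not separate spliced from unspliced Xbp1, and neither ATF6 cleavage nor PERK phosphorylation was measured.

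The arms differ in how many of their promoters carry the element through which ATF6 and XBP1 act on chaperone genes. The ATF6/XBP1 arm was grouped by its link to these 2 factors, so the difference describes the lists and is not a test. RefSeq promoters (GRCm38.p6, 250 bases before to 50 bases after the start) were found for 29 of the 33 members: 20 of the ATF6/XBP1 arm and all 9 of the PERK-ATF4 arm. Atf6, Hyou1, Manf and Derl1 were not matched. The ER stress element (ERSE) was searched on both strands as CCAAT, any 9 bases, then CCACG, and its variant ERSE-II as ATTGG, any 1 base, then CCACG. Either form lay in 11 of the 20 ATF6/XBP1 promoters and in 0 of the 9 PERK-ATF4 promoters, against 0.155% of all 32817 promoters. ERSE alone was in 9 of the 20 (0.119% of all promoters) and ERSE-II in 2, Herpud1 and Dnajb11 (0.0366%). The Dnajb11 match starts 8 bases after the start, within the transcribed part.

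The 9 promoters with ERSE are given with 10 flanking bases on each side, in the direction in which CCAAT comes before CCACG, with CCAAT and CCACG in capitals. Hsp90b1, which encodes the ER form of HSP90, holds the element 2 times, once on each strand.
Hspa5, chr2:34772015-34772053 (+): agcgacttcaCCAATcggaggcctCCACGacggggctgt
Hsp90b1, chr10:86705628-86705666 (-): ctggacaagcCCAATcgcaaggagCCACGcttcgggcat
Hsp90b1, chr10:86705523-86705561 (+): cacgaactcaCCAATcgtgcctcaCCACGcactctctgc
Dnajc3, chr14:118937817-118937855 (+): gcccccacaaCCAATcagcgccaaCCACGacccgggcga
Pdia6, chr12:17266481-17266519 (+): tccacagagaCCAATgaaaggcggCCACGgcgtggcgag
Creld2, chr15:88819510-88819548 (-): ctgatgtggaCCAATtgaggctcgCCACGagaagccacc
Calr, chr8:84847065-84847103 (+): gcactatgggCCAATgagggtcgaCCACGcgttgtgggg
Canx, chr11:50325790-50325828 (-): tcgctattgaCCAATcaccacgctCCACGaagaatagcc
Syvn1, chr19:6046522-6046560 (+): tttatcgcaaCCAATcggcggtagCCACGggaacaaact
Derl3, chr10:75893232-75893270 (-): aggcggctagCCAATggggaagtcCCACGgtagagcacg

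The whole 250 bases before the start of Hspa5, the gene of the chaperone BiP, show the element in its setting, 65 bases before the start, with CCAAT and CCACG of the full match in capitals.
Hspa5, chr2:34771840-34772089 (+): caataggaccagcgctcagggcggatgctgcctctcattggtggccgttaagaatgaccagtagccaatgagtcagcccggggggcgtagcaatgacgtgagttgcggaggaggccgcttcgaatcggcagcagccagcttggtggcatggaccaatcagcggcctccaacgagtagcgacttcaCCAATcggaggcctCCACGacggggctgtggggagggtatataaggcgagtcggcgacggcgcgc

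Herpud1, which encodes a membrane protein of the degradation complex, holds ERSE-II together with TTGCATCA, a form of the C/EBP-ATF element (CARE) at which ATF4 binds. TTGCATCA, searched on both strands, was in 2 of the 9 PERK-ATF4 promoters (Atf3 and Chac1), in 1 of the 20 ATF6/XBP1 promoters (Herpud1) and in 0.896% of all promoters. The capitals mark ATTGG and CCACG in the first sequence and TTGCATCA in the other three.
Herpud1, chr8:94386367-94386397 (+): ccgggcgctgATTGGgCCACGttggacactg
Herpud1, chr8:94386307-94386334 (+): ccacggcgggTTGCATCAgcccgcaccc
Atf3, chr1:191183426-191183453 (-): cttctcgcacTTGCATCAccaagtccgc
Chac1, chr2:119351039-119351066 (+): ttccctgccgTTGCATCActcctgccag

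The XBP1 element, searched on both strands in the exact form TGACGTGG, was in none of the 29 member promoters and in 0.676% of all promoters. Other forms were not searched, and the Hspa5 sequence above holds tgacgtga, which differs in the last base. A match describes letters in this window and not binding.

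Levels in the text below are CPM (counts scaled to library size, here TMM-scaled) unless TPM is named, and fold changes are log2 of knockout over control from edgeR's quasi-likelihood test with Benjamini-Hochberg adjustment over all 13197 genes. Total counts were 18528919 to 20414468 in the knockout libraries and 16704663 to 21025466 in the control libraries. Sting1 had 106, 114 and 80 counts in knockout replicates 1 to 3, against 240, 365 and 226 counts in control replicates 1 to 3, with no overlap (log2 fold change -1.29, standard error 0.23, edgeR adjusted p 0.357). DESeq2 gave Sting1 an adjusted p of 0.00154. Of the 13197 genes, 0% passed edgeR's adjusted p of 0.05, while 3.75% had an unadjusted p under 0.05 and were higher in knockout livers and 7% were lower. DESeq2 called 119 genes, none of them a member. Control replicate 2 stood apart from the rest, with 6.91% of its counts in Alb and a TMM factor of 1.26, against 9.07% to 10.9% and factors of 0.922 to 1.01 in the other 5 libraries.

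In the knockout livers 25 of the 33 members had a log2 fold change above 0, against 51.2% of all genes tested, but 19 were above 0 on total counts, against 21.2% of all genes, and 14 on either TPM scale, against 19% and 19.1%. None passed the adjusted p in edgeR or in DESeq2. Without knockout replicate 2, 13 of the 33 were above 0 (49.7% of all genes), and without knockout replicate 1, 30 were (50% of all genes). One member, Xbp1, had an unadjusted p under 0.05 in both tools, and it was also the one member whose knockout libraries all lay above the control libraries, which 7.25% of all genes did. No member lay wholly below (9.14% of all genes). The ATF6/XBP1 arm had 22 of 24 members above 0 and a median of 0.38 (range -0.06 to 1.14). The PERK-ATF4 arm had 3 of 9 above 0 and a median of -0.11 (range -0.28 to 0.37), and the median over all genes was 0.01. The 8 members below 0 were Atf6, Selenos, Eif2ak3, Atf3, Chac1, Asns, Ppp1r15a and Sesn2.

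The members spread widely among the knockout livers, with replicates 1 and 2 at opposite ends. Knockout replicate 2 was the highest of the 6 libraries for 28 of the 33 members, against 15.3% of all genes, and knockout replicate 1 was the lowest for 19, against 14.7%. On TMM scaling the SD of log2 CPM was larger among the knockout than among the control libraries for 31 members, against 49.8% of all genes. Its median over the members was 0.66 in knockout and 0.29 in control livers, where all genes had medians of 0.219 and 0.225. This count was not taken on other scales. On TPM some members, among them Atf6, Eif2ak3 and Atf3, had a larger SD in control livers. The ratio of knockout replicate 2 to knockout replicate 1 had a median of 2.34 over the 33 members and ranged between 1.03 (Trib3) and 5.64 (Sdf2l1). On total counts and on TPM, scales on which control replicate 2 is the highest library for 62.2% and 67.2% of all genes, knockout replicate 2 was the highest for 19 members (5.6% and 4.72% of all genes) and knockout replicate 1 the lowest for 24 (25.2% and 25%). Members of one pathway move together and are not independent of each other, so these counts carry no test. The labels give no other difference between these 2 livers.

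**Figure D1:**
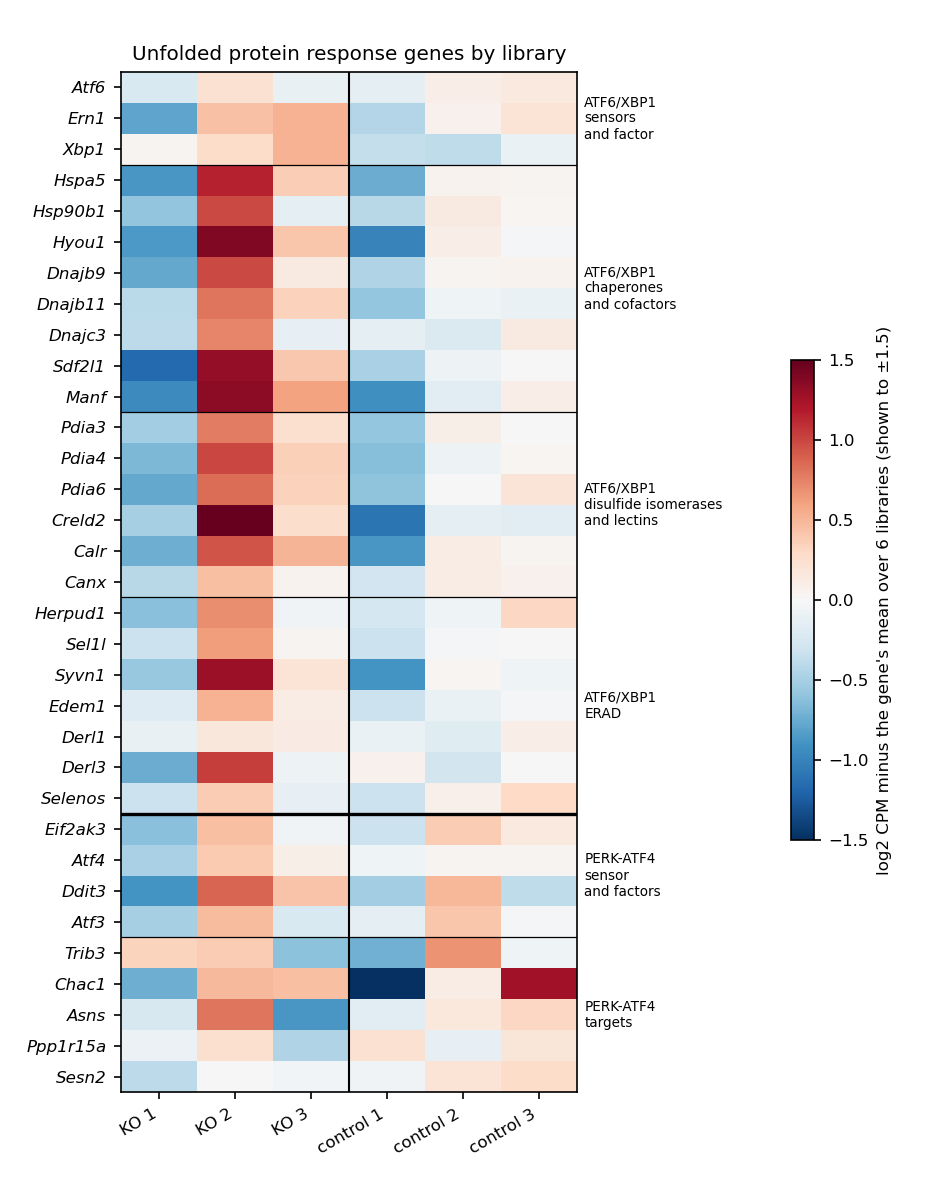
Log2 CPM of each of the 33 members minus the gene's mean over the 6 libraries, colours shown to ±1.5, with 3 knockout (KO) libraries on the left of the line and 3 control libraries on the right, genes ordered by arm and role. The column of KO replicate 2 is red for nearly all ATF6/XBP1 chaperones, isomerases and degradation genes, and the columns of KO replicate 1 and control replicate 1 are blue for most of them.

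Among the sensors and their factor, Xbp1 (chr11:5520659-5525893, plus strand, GRCm38), the factor spliced by IRE1alpha, stood at 189, 221 and 263 CPM in knockout replicates 1 to 3, against 143, 141 and 172 CPM in control replicates 1 to 3. The lowest knockout liver lay above the highest control liver on this scale. The group means were 224 ± 37.4 CPM in knockout and 152 ± 17.2 CPM in control livers (SD, n = 3 each), a log2 fold change of 0.56 (standard error 0.17, 95% interval 0.17 to 0.96, edgeR unadjusted p 0.0109, adjusted p 0.381). DESeq2 gave an adjusted p of 0.0979, and the two-sided exact permutation test gave 0.1, the smallest p that 3 against 3 allows. The separation depends on the scaling: on total counts alone Xbp1 stood at 174, 208 and 244 CPM in knockout and 145, 177 and 167 CPM in control livers, which overlap, with an edgeR unadjusted p of 0.0641. On TPM the groups also overlapped. Leaving out any 1 library kept an edgeR unadjusted p between 0.00692 and 0.0478 on TMM scaling.

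Xbp1 was one of the 2 members that were highest in knockout replicate 3 and not in replicate 2. The other was Ern1, the kinase and ribonuclease that splices Xbp1, at 36.9, 86.2 and 91.5 CPM in knockout and 47.1, 66.6 and 73.3 CPM in control livers, with overlapping groups (log2 fold change 0.20, standard error 0.33). Atf6 itself averaged 111 ± 18.7 CPM in knockout and 116 ± 11.6 CPM in control livers (SD, n = 3 each), and its log2 fold change of -0.06 had a 95% interval of -0.43 to 0.31.

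All 8 chaperones and cofactors had a log2 fold change above 0, with a median of 0.58, and all 8 were highest in knockout replicate 2. None passed a test. Their median was 0.36 on total counts (8 above 0), 0.17 and 0.16 on the TPM scales (5 above 0) and 0.03 without knockout replicate 2 (4 above 0). Hspa5 (chr2:34771970-34777547, plus strand), BiP, the most abundant ER chaperone and the one that holds the sensors silent, stood at 429, 1744 and 1016 CPM in knockout replicates 1 to 3. In control replicates 1 to 3 it stood at 468, 815 and 805 CPM. The lowest and the highest of the 6 livers were both knockouts, and the means of 1063 ± 658 and 696 ± 197 CPM (SD, n = 3 each) differed by less than the knockout SD (log2 fold change 0.61, 95% interval -0.45 to 1.67, edgeR adjusted p 0.651, two-sided exact permutation p 0.5).

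Hyou1, an ER relative of HSP70 that exchanges nucleotide on BiP, stood at 66.3, 316 and 162 CPM in knockout and 60.2, 129 and 119 CPM in control livers. Its log2 fold change of 0.82 had an interval of -0.50 to 2.13. Manf, a secreted and ER-resident protein that binds BiP, stood at 40.2, 198 and 119 CPM in knockout and 41.3, 70.0 and 83.6 CPM in control livers. On TMM scaling knockout replicates 2 and 3 lay above all 3 controls in both genes, and replicate 1 lay within or below them. On total counts and on TPM this held for Manf. For Hyou1, knockout replicate 3 lay below control replicate 2 there, at 150 against 162 CPM on total counts. The log2 fold change of Manf was 0.87 (interval -0.46 to 2.197).

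Sdf2l1, a low-level ER cofactor of BiP, had the widest spread of the members between knockout livers, at 7.1, 40.2 and 21.3 CPM, against 11.5, 15.3 and 16.2 CPM in control livers. Knockout replicate 2 was 5.64 times replicate 1, while the control livers differed by at most 1.41 times. Dnajb9, the J-domain protein that feeds back on IRE1alpha, stood at 44.2, 151 and 83.0 CPM in knockout and 55.4, 77.6 and 78.5 CPM in control livers. Dnajb11, a J-domain partner of BiP in the lumen, averaged 91.1 ± 35.7 CPM in knockout and 61.9 ± 11.7 CPM in control livers (SD, n = 3 each). With a log2 fold change of 0.56 (standard error 0.29) and an edgeR unadjusted p of 0.0849 (adjusted 0.520), Dnajb11 came closest to the threshold among the chaperones.

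The remaining chaperones had smaller differences. Hsp90b1 averaged 673 ± 400 CPM in knockout and 541 ± 103 CPM in control livers, and Dnajc3, which encodes the inhibitor p58IPK, 240 ± 104 and 205 ± 26.8 CPM (SD, n = 3 each). For both genes knockout replicate 2 alone lay above the control livers.

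**Figure D2:**
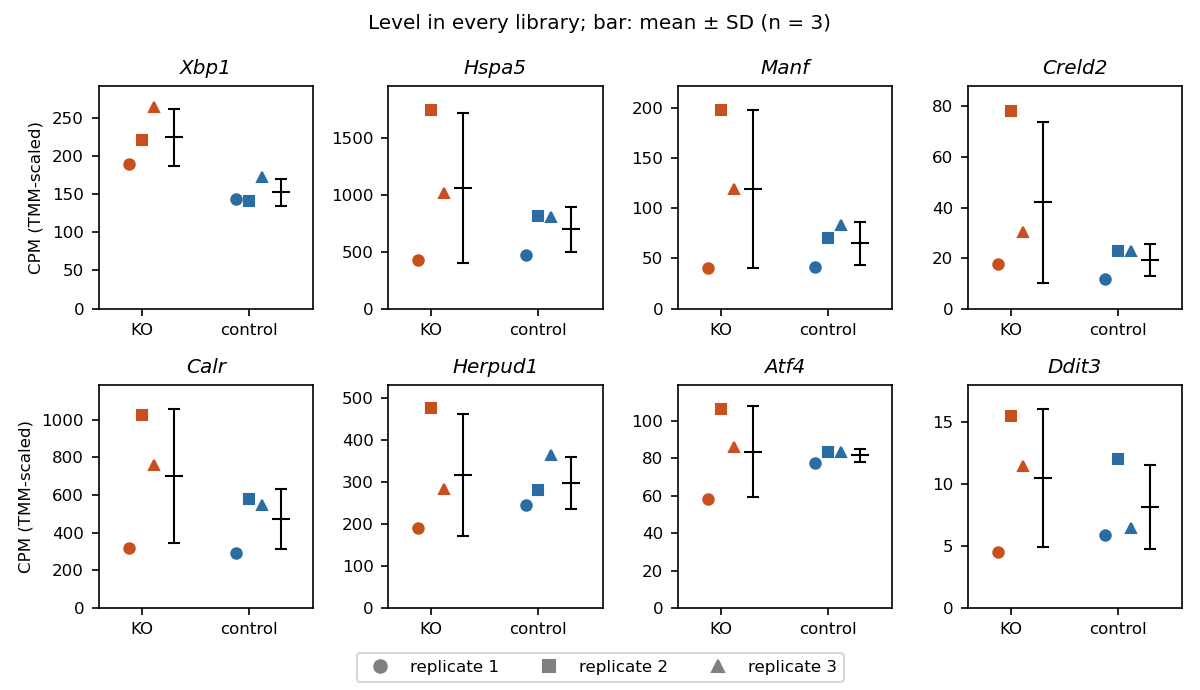
TMM-scaled CPM of 8 members in every library (symbols by replicate number, red for knockout and blue for control), with the mean and SD of each group as a bar to the right of the points. Xbp1 is the one panel without overlap; in the panels of Hspa5, Manf, Creld2 and Calr, KO replicate 2 is the highest point and KO replicate 1 lies close to control replicate 1.

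The 6 disulfide isomerases and lectins were likewise all above 0, with a median log2 fold change of 0.48. All were highest in knockout replicate 2 on TMM scaling, but Canx was highest in control replicate 2 on total counts and on TPM. On total counts the median was 0.25, on the TPM scales 0.15, each with 5 of the 6 above 0, and without knockout replicate 2 it was 0.09. Creld2, an ER protein with a role in disulfide exchange, stood at 17.8, 78.1 and 30.4 CPM in knockout and 11.8, 22.8 and 22.6 CPM in control livers. Its log2 fold change of 1.14 was the largest among the members, with a standard error of 0.56 and a 95% interval of -0.20 to 2.48 (edgeR unadjusted p 0.0843, adjusted p 0.519). Calreticulin (Calr), the soluble lectin that holds newly made glycoproteins, stood at 320, 1023 and 760 CPM in knockout and 291, 577 and 549 CPM in control livers. On TMM scaling knockout replicates 2 and 3 exceeded every control liver for both genes. Knockout replicate 1 lay between control replicate 1 and the other controls. On total counts and on TPM knockout replicate 3 lay below control replicate 2 for both genes. On total counts these 2 livers stood at 28.2 and 28.7 CPM for Creld2, and at 705 and 726 CPM for Calr.

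The protein disulfide isomerases, which form and reshuffle disulfide bonds, had log2 fold changes of 0.39 for Pdia3, 0.58 for Pdia4 and 0.38 for Pdia6, with adjusted p of 0.683, 0.604 and 0.730 in edgeR. Pdia4 averaged 239 ± 126 CPM in knockout and 159 ± 37.0 CPM in control livers (SD, n = 3 each). Calnexin (Canx), the membrane-bound lectin, differed least in this group, at 349 ± 103 CPM in knockout and 326 ± 46.7 CPM in control livers (log2 fold change 0.10).

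Of the 7 genes of ER-associated degradation (ERAD), 6 were above 0 with a median log2 fold change of 0.28, but the median was 0.06 on total counts, -0.0386 and -0.0924 on the TPM scales, and -0.0164 without knockout replicate 2. All 7 were highest in knockout replicate 2 on TMM scaling. Syvn1, the ubiquitin ligase HRD1, stood at 36.5, 131 and 62.2 CPM in knockout and 29.1, 55.3 and 51.7 CPM in control livers, a log2 fold change of 0.76 (interval -0.37 to 1.88). Its partner Sel1l averaged 162 ± 55.1 CPM in knockout and 133 ± 16.3 CPM in control livers, and the mannosidase-like Edem1 171 ± 42.6 and 137 ± 14.7 CPM (SD, n = 3 each). Both had overlapping groups, and the log2 fold changes of Sel1l and Edem1 were 0.28 and 0.32.

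Herpud1 stood at 191, 476 and 284 CPM in knockout and 246, 282 and 365 CPM in control livers, so that the knockout livers held both the lowest and the highest value (log2 fold change 0.09, standard error 0.32). Derl1, a channel protein of the retrotranslocation complex, was among the steadiest members, at 166 ± 16.8 CPM in knockout and 152 ± 15.2 CPM in control livers. Its relative Derl3 averaged 2.67 ± 1.76 and 2.11 ± 0.268 CPM. Selenos, a selenoprotein of the same complex, averaged 48.3 ± 12.6 and 49.3 ± 10.4 CPM (SD, n = 3 each, knockout before control), and its log2 fold change was -0.03.

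The PERK-ATF4 arm had no member with an edgeR unadjusted p under 0.05. Atf4 (chr15:80255184-80257541, plus strand), which is controlled largely at translation, stood at 58.1, 106 and 86.3 CPM in knockout and 77.8, 83.5 and 83.5 CPM in control livers. On TMM scaling the control livers were nearly level, within 1.07 times of each other, and the knockout livers enclosed them on both sides. This depends on the scaling. On total counts the control livers stood at 78.8, 105 and 81.4 CPM, and control replicate 2 lay above knockout replicate 2 at 100 CPM. On TPM control replicate 2 was also the highest library. The log2 fold change was 0.03 (95% interval -0.44 to 0.50, edgeR adjusted p 0.959, two-sided exact permutation p 1.0). Ddit3 (chr10:127290774-127296288, plus strand), CHOP, was low, at 4.5, 15.5 and 11.4 CPM in knockout and 5.9, 12 and 6.4 CPM in control livers (log2 fold change 0.37, interval -0.67 to 1.40, edgeR adjusted p 0.782, two-sided exact permutation p 0.9). These groups overlapped in most of their range. The table holds a second row with the symbol Ddit3, with 0 counts in all 6 libraries, and it was not used.

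Eif2ak3, the gene of the sensor PERK, averaged 31.0 ± 11.3 CPM in knockout and 33.3 ± 7.86 CPM in control livers, and the stress factor Atf3 30.7 ± 11.2 and 33.7 ± 7.09 CPM (SD, n = 3 each). On TMM scaling Eif2ak3, Atf4, Ddit3 and Atf3 were each highest in knockout replicate 2 and lowest in knockout replicate 1, as were 6 of the 8 chaperones. On total counts and on TPM these 4 genes were highest in control replicate 2 and still lowest in knockout replicate 1. The 8 chaperones stayed highest in knockout replicate 2 on those scales. None of the 5 ATF4 targets was both highest in knockout replicate 2 and lowest in knockout replicate 1 on TMM scaling. Asns, asparagine synthetase, stood at 20.95, 43.1 and 13.4 CPM in knockout and 22.1, 27.7 and 30.6 CPM in control livers, with its lowest value in knockout replicate 3. Trib3, a pseudokinase induced by ATF4 and CHOP, was lowest in control replicate 1 at 9.8 CPM and highest in control replicate 2 at 25.7 CPM.

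Chac1, which degrades glutathione, ranged between 1.4 and 3.5 CPM in knockout and between 0.8 and 6.1 CPM in control livers, and its log2 fold change of -0.19 had a standard error of 0.66. Ppp1r15a, the phosphatase subunit GADD34 that reverses eIF2alpha phosphorylation, averaged 14.6 ± 3.43 CPM in knockout and 16.6 ± 2.12 CPM in control livers (log2 fold change -0.18). Sesn2, a stress-induced inhibitor of mTORC1, averaged 12.2 ± 1.77 and 14.8 ± 1.70 CPM (SD, n = 3 each, knockout before control) and had the lowest log2 fold change of the 33 members, -0.28 (standard error 0.17, edgeR unadjusted p 0.129). On total counts its knockout libraries all lay below the control libraries, at 9.36, 12.6 and 12.03 CPM against 13.1, 19.3 and 15.8 CPM (edgeR unadjusted p 0.0420, adjusted p 0.321). On that scale 19.5% of all genes lay wholly below, and 15% had an unadjusted p under 0.05 in either direction. The Sesn2 libraries of knockout livers also lay wholly below on TPM, as did 18.6% of all genes.

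**Figure D3:**
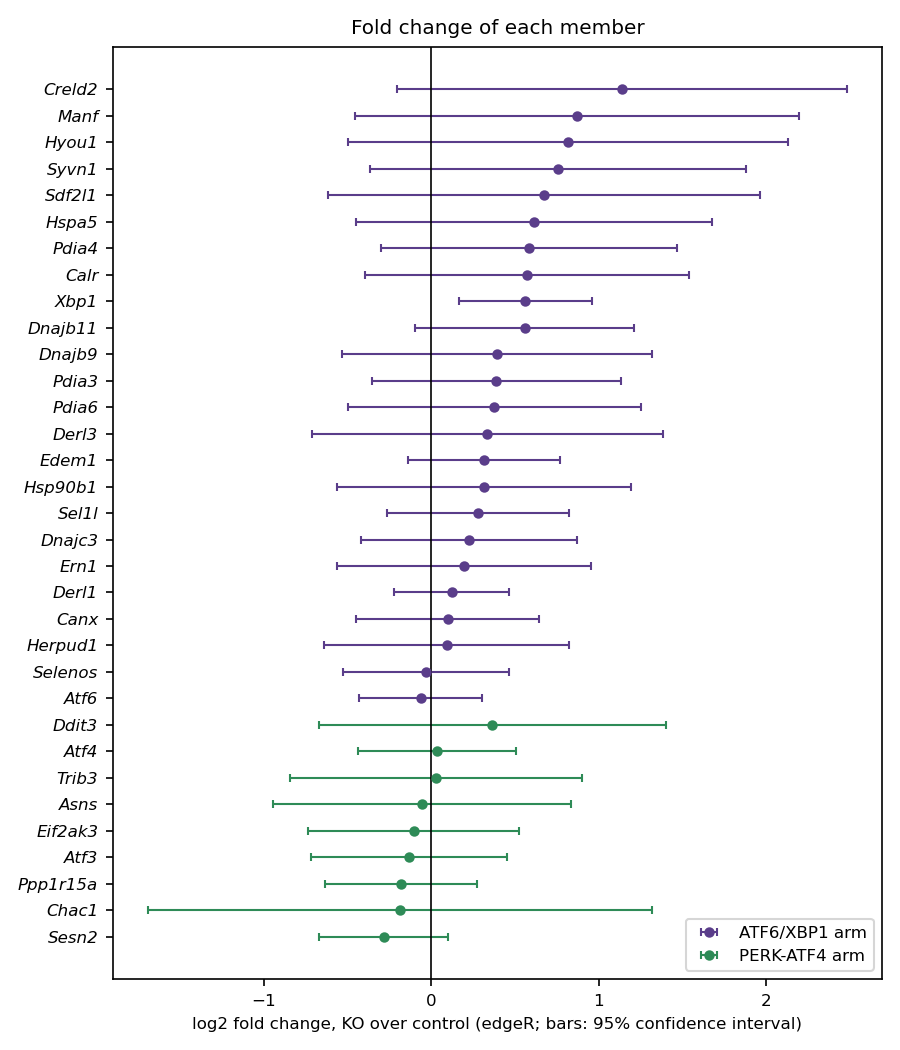
Log2 fold change of each member, knockout over control, with its 95% confidence interval from edgeR, ordered by size within the ATF6/XBP1 arm (purple) and the PERK-ATF4 arm (green). The interval of Xbp1, 0.17 to 0.96, is the one that does not reach 0, and the intervals of Creld2, Manf and Hyou1, with the largest fold changes, are the widest in the ATF6/XBP1 arm.

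The medians of the arms depended on single livers. Without knockout replicate 1, all 24 ATF6/XBP1 members were above 0, the median of that arm was 0.68, and 15 of the 33 members had an edgeR unadjusted p under 0.05 in the higher direction, against 4.38% of all genes in that fit. These 15 were Xbp1, Ern1, Hspa5, Hyou1, Manf, Sdf2l1, Dnajb9, Dnajb11, Pdia3, Pdia4, Pdia6, Calr, Creld2, Syvn1 and Edem1. Without knockout replicate 2, the median was 0.05, 13 of the 24 were above 0, and Xbp1 was the one member with an edgeR unadjusted p under 0.05 in that direction, while Asns passed it in the other. No member passed the adjusted p in either fit. With control replicate 2 left out as well as knockout replicate 2, an alternative chosen after seeing the data, the median of the arm was 0.08. Without control replicate 1 it was 0.25.

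The distance between the arms moved less than either arm. The PERK-ATF4 median minus the ATF6/XBP1 median was -0.49, and it was below 0 under all 17 alternatives run, between -0.60 and -0.35. The ATF6/XBP1 median was above 0 under each of them, at its lowest 0.04 on log2(TPM + 1) and on log2(TPM + 0.1). The PERK-ATF4 median was above 0 without knockout replicate 1 (0.08) and without control replicate 2 (0.06), and below 0 elsewhere. Scaling on total counts moved the median of all genes to -0.21, and the TPM scales moved it to -0.20 and -0.23. Relative to that median the ATF6/XBP1 arm stood 0.37 higher on TMM scaling, 0.37 on total counts, and 0.23 and 0.27 on the TPM scales. This difference between the lists was not tested.

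The order of the livers can be read from the median deviation of each list, that is the median over its genes of log2 CPM minus the gene's mean over the 6 libraries. For the chaperones it was -0.82, 1.07 and 0.36 in knockout replicates 1 to 3, against -0.53, -0.01 and 0.03 in control replicates 1 to 3. For the isomerases and lectins it was -0.60, 0.89 and 0.31 in knockout and -0.62, 0.04 and 0.04 in control livers. The ERAD genes spread less, at -0.32, 0.63 and 0.04 in knockout livers, against -0.32, -0.06 and 0.01 in control livers. Control replicate 1 thus stood with knockout replicate 1 at the low end of all 3 lists, and all genes together stayed between -0.01 and 0.02 in every library.

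**Figure D4:**
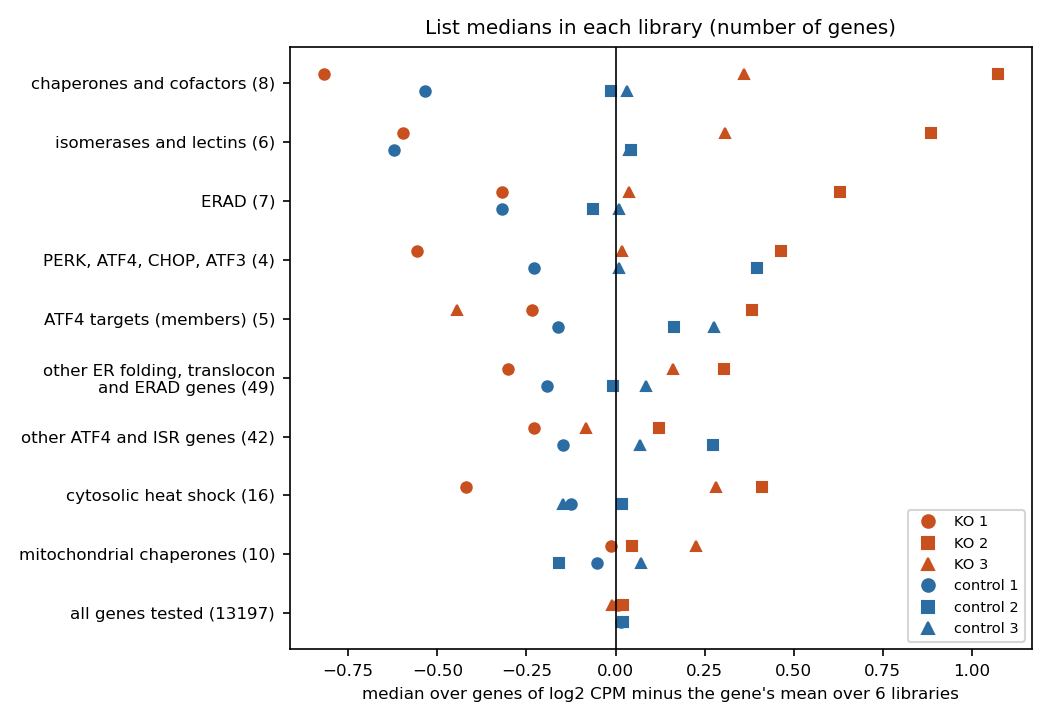
Median over each list's genes of log2 CPM minus the gene's mean over the 6 libraries, one symbol per library, red for knockout (upper row of each list) and blue for control (lower row), with the number of genes tested. KO replicate 2 lies at 1.07 for the chaperones and KO replicate 1 at -0.82, and all 6 libraries lie near 0 for all genes tested.

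The ATF6/XBP1 members were also set side by side by promoter. The 11 with ERSE or ERSE-II had a median log2 fold change of 0.38 and the 9 without one 0.39. Knockout replicate 2 was the highest library for 11 of the 11 and for 7 of the 9, and its ratio to knockout replicate 1 had a median of 3.04 in the first set and 2.34 in the second. Sdf2l1, with the widest ratio, is in the second set. The difference was not tested.

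Other genes of the same compartment were measured beside the members. Of 50 further genes of ER folding, translocation and ERAD, 49 were measured, and 39 were above 0 (51.2% of all genes) with a median log2 fold change of 0.13. On total counts 11 were above 0 (21.2% of all genes) with a median of -0.0844. On the TPM scales 6 were above 0 (19% and 19.1% of all genes) with a median of -0.13. Without knockout replicate 2 the median was -0.0083. Knockout replicate 2 was the highest library for 27 of the 49 on TMM scaling, against 15.3% of all genes. The list median was -0.30, 0.30 and 0.16 in knockout replicates 1 to 3, against -0.19, -0.01 and 0.09 in control replicates 1 to 3. No gene of this list passed the adjusted p, and 1, Kdelr3, a receptor that returns ER proteins from the Golgi, had an edgeR unadjusted p under 0.05. Of all genes, 3.75% were higher and 7% lower at that threshold. Kdelr3 was lower in knockout livers, at 1.69 ± 0.279 CPM against 3.79 ± 1.84 CPM in control livers (SD, n = 3 each). The 3 with the next smallest p were higher: Txndc11 (log2 fold change 0.43), Ero1b, an oxidase that recharges the isomerases (0.63), and Pdia5 (0.55).

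A list of sensors and their regulators held 18 genes, some of which act downstream of the sensors. Of these, 17 were tested and 12 were above 0 (51.2% of all genes) with a median of 0.11. The median was -0.11 on total counts and -0.0903 and -0.0966 on the TPM scales. Map3k5, the kinase ASK1 that acts downstream of IRE1alpha, stood at 56.5, 44.5 and 49.3 CPM in knockout and 28.6, 34.9 and 33.1 CPM in control livers. The groups did not overlap on TMM scaling, where 7.25% of all genes lay wholly higher in knockout livers. Without the TMM factors, 0.941 for knockout replicate 2 and 1.26 for control replicate 2, the former lies below the latter. The log2 fold change of Map3k5 was 0.64 (standard error 0.14), its adjusted p 0.357 in edgeR and 0.0276 in DESeq2. Map3k5 was lowest in knockout replicate 2 within its group and did not share the order of the chaperones.

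The wider set of ATF4 and integrated stress response genes lay on the lower side. Of 42 genes, 29 were below 0 and 13 above 0 (51.2% of all genes were above 0), and the median was -0.16. Control replicate 2 was the highest library for 22 of the 42, against 25.3% of all genes. Without control replicate 2 the median was -0.0069, with 20 of the 42 above 0 (52.3% of all genes). It was below 0 under the other alternatives run, at -0.33 without knockout replicate 2. None passed edgeR's adjusted p, and 6 had an unadjusted p under 0.05 in the lower and 1 in the higher direction, against 7% and 3.75% of all genes. Ddit4, an inhibitor of mTORC1 that also answers to glucocorticoids and hypoxia, stood at 4.8, 6.6 and 5.3 CPM in knockout and 17.0, 12.2 and 18.1 CPM in control livers, a log2 fold change of -1.503 (standard error 0.21, adjusted p 0.357 in edgeR and 9.94e-06 in DESeq2). Tnfrsf10b, a death receptor, averaged 1.46 ± 0.395 CPM in knockout and 4.07 ± 0.715 CPM in control livers (DESeq2 adjusted p 0.0138). The glutamine transporter Slc38a2 (log2 fold change -0.92) and the mitochondrial enzyme Pck2 (-0.57) were also without overlap. On TMM scaling 5 of the 42 genes lay wholly lower and 1 wholly higher in knockout livers, against 9.14% and 7.25% of all genes. DESeq2 called 2 genes of this list, Ddit4 and Tnfrsf10b. The 7 eIF2alpha kinases and phosphatase parts had a median of 0.03 (-0.18 on total counts, -0.21 and -0.22 on the TPM scales), and none had an edgeR unadjusted p under 0.05.

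Markers of other cell types were set beside the order of the livers. The summed CPM, on total counts, of 9 plasma cell markers, a cell type rich in ER, was 476, 253 and 391 in knockout replicates 1 to 3, against 485, 388 and 354 in control replicates 1 to 3, lowest in the library with the highest chaperones. Of 10 pancreatic acinar markers 2 were tested, and the sum was 5.86 to 6.17 CPM in knockout and 5.33 to 6.52 CPM in control livers, with Clps at 0 in every library. The 8 hepatocyte markers summed to 121104 to 139855 CPM in knockout and 88200 to 123919 CPM in control livers, lowest in control replicate 2. The 7 cholangiocyte markers summed to 512, 228 and 284 CPM in knockout and 826, 1576 and 503 CPM in control livers, again lowest in knockout replicate 2. The 7 neutrophil markers summed to 65.8, 19.4 and 14.4 CPM in knockout and 14.8, 35.6 and 20.6 CPM in control livers, highest in knockout replicate 1. The 7 Kupffer cell and macrophage markers summed to 820 to 1085 CPM in knockout and 578 to 983 CPM in control livers, lowest in control replicate 1. The part of these cell types in the result was not tested.

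Compared per transcript length, the members spanned a wide range, and the same few genes led in both groups. Hspa5 had the highest mean level over the 6 libraries, 658 ± 413 TPM in knockout and 519 ± 206 TPM in control livers, followed by Calr at 541 ± 278 and 444 ± 199 TPM and Hsp90b1 at 402 ± 243 and 391 ± 132 TPM (SD, n = 3 each). The SDs describe the spread between livers, and within each of the 6 libraries Hspa5 stood above both Calr and Hsp90b1. The order of these 3 genes was not tested. Xbp1 ranked 7th at 193 ± 38.6 TPM in knockout and 156 ± 22.5 TPM in control livers, and Atf4 12th at 81.6 ± 24.4 and 95.4 ± 19.5 TPM. Ddit3 ranked 27th at 21.05 ± 11.2 and 20.2 ± 12.5 TPM. At the low end stood Sesn2 with 5.90 ± 0.899 and 8.61 ± 2.00 TPM, Chac1 with 2.86 ± 1.21 and 3.78 ± 2.83 TPM, and Derl3 with 3.42 ± 2.28 and 3.17 ± 0.212 TPM (SD, n = 3 each, knockout before control).

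**Figure D5:**
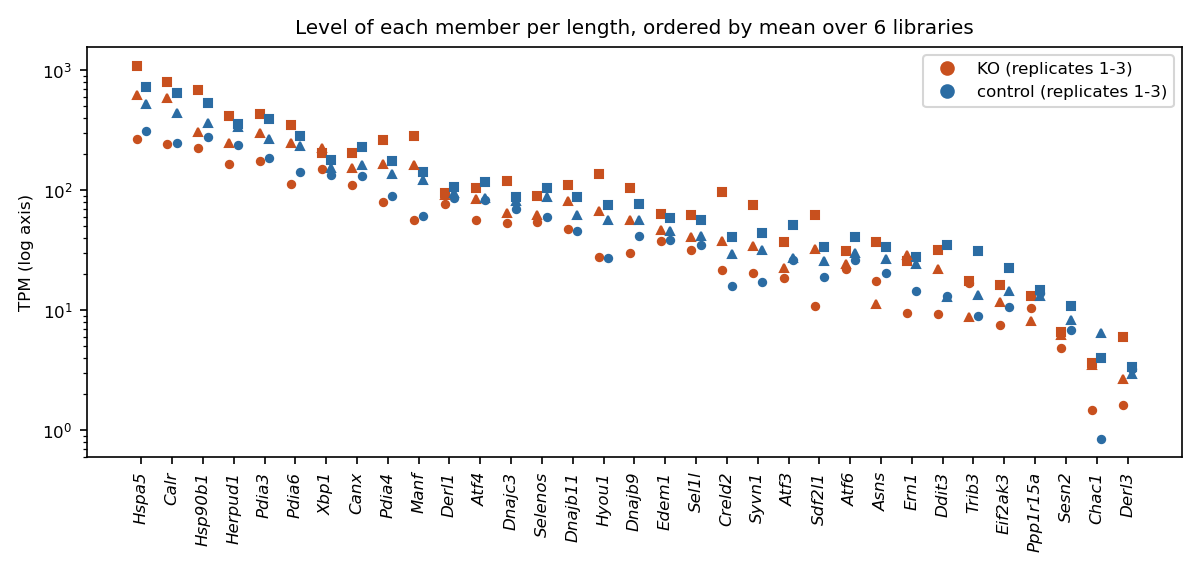
TPM of the 33 members in every library on a log axis, ordered by the mean over the 6 libraries, red for knockout (left of each pair) and blue for control, with circles, squares and triangles for replicates 1, 2 and 3. The order runs between Hspa5, at 658 TPM in the mean of the knockout livers, and Derl3, at 3.42 TPM, and the red symbols of Hspa5, Calr and Hsp90b1 are spread more widely than the blue ones.

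Exons of 6 members overlap exons of other genes of the table in the GENCODE M21 annotation: Manf, Pdia3, Pdia6, Syvn1, Ddit3 and Ppp1r15a. All 6 have an overlap on the opposite strand. The sources used here do not say whether the counting used the strand, and counts of these members could include reads of their neighbours.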

How the data were processed

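The members and gene lists were chosen with earlier results of these data known. The authors deposited estimated counts per gene, not normalized, and TPM values, scaled to gene length and a fixed total, for 6 liver libraries. The submitters' processing notes name DESeq2 1.38.3, RSEM 1.3.3, HISAT2 2.2.1 and fastp 0.23.2 with GRCm38, without roles or order, and no annotation release is given in the sources used here.

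The deposited estimated counts were rounded to whole numbers (6.93% of values were not whole). Knockout and control were compared by the quasi-likelihood test of edgeR 4.0.16 (filterByExpr, TMM, robust fit, prior count 2, Benjamini-Hochberg at 0.05), with no covariate. Standard errors were taken from the fold change and the F statistic of each gene. Intervals are at 95%. Permutation tests of log2 CPM were exact and two-sided. Alternatives were DESeq2 1.42.0, limma-voom (limma 3.58.1), RLE, upper-quartile and total-count scaling, filters at 1 count or a mean of 100 counts, limma on log2(TPM + 1) and log2(TPM + 0.1), a replicate block, and each library left out. The fits were tested on simulated data. All pairs of libraries differed by more than sampling noise.

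All 33 members are named. Values in every library were due to Hspa5, Ddit3, Atf4 and members past an unadjusted p of 0.05 or without overlap, and are given for further members chosen after their values were seen. Other lists are represented by up to 4 genes with the smallest p. Promoters came from RefSeq on GRCm38.p6 and positions from GENCODE M21. Of 279 list symbols, 1 was not matched (Hm13). A check of protein sequences was not run here. Software was R 4.3.3 and Python 3.11.15 with matplotlib 3.10.9.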

Additional observations from a re-analysis of the deposited data

How the results depend on the processing

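No member passed the adjusted p under any alternative. Over all genes DESeq2 called 119, and leaving out 1 library gave 0 to 2. The labels do not say that replicate numbers pair animals, and the main fit used no pairs. Over all genes tested, same-numbered deviations from the group means had correlations of 0.115, -0.0068 and 0.133. This does not settle it for the members, as replicate 1 was the lowest of both groups for the chaperones (-0.82 and -0.53). With a replicate block 5 genes passed the adjusted p. In that fit 6 members passed the unadjusted p (Calr, Dnajb11, Xbp1, Creld2, Syvn1 and Hyou1, all higher, against 5.75% of all genes in that direction). Members past an unadjusted p numbered 0 on log2(TPM + 1) and 0 on log2(TPM + 0.1), and 1 to 15 with 1 library left out, the highest without knockout replicate 1. Members without overlap numbered 2 on either TPM scale (Sesn2 and Ppp1r15a, both lower, against 18.6% of all genes in that direction), and 5 without knockout replicate 2 and control replicate 2 (1 higher and 4 lower, against 20.4% and 20.9% of all genes). They numbered 1 to 18 with 1 library left out, where 22.3% to 32.2% of all genes did not overlap; the 18, without knockout replicate 1, were all higher, against 15.2% of all genes in that fit. The median of the other ER genes was -0.13 on both TPM scales, and that of the other ATF4 genes -0.37 on total counts, -0.37 on log2(TPM + 1) and -0.43 on log2(TPM + 0.1), scales on which all genes lay lower in the median, and -0.33 to -0.0069 with 1 library left out.

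Some members turned sign on scales that move all genes down. On total counts the log2 fold change was -0.0226 for Ern1, -0.13 for Canx, -0.11 for Herpud1, -0.0853 for Derl1, -0.18 for Atf4 and -0.24 for Trib3. On log2(TPM + 1) and log2(TPM + 0.1) it was -0.13 and -0.14 for Ern1, -0.0697 and -0.0701 for Hsp90b1, -0.0024 and -0.0047 for Dnajb9, -0.0913 and -0.0933 for Dnajc3, -0.18 and -0.18 for Canx, -0.24 and -0.24 for Herpud1, -0.0078 and -0.0085 for Sel1l, -0.12 and -0.12 for Derl1, -0.0386 and -0.0924 for Derl3, -0.25 and -0.25 for Atf4, and -0.17 and -0.17 for Trib3. In limma-voom it was -0.0056 for Atf4 and 0.13 for Chac1, and with a replicate block -0.0069 and 0.0859. Trib3 had -0.0018 with upper-quartile scaling and -0.0025 with a mean of at least 100 counts.

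With 1 library left out in turn, the ranges that crossed 0 were -0.20 to 0.0316 for Atf6, -0.0166 to 0.51 for Ern1, -0.28 to 0.61 for Hsp90b1, -0.14 to 0.73 for Dnajb9, -0.18 to 0.44 for Dnajc3, -0.0072 to 1.11 for Sdf2l1, -0.0059 to 0.71 for Pdia6, -0.13 to 0.30 for Canx, -0.32 to 0.36 for Herpud1, -0.0164 to 0.48 for Sel1l, -0.32 to 0.68 for Derl3 and -0.26 to 0.12 for Selenos. In the PERK-ATF4 arm they were -0.40 to 0.13 for Eif2ak3, -0.17 to 0.24 for Atf4, -0.0255 to 0.77 for Ddit3, -0.46 to 0.0598 for Atf3, -0.24 to 0.46 for Trib3, -0.64 to 0.70 for Chac1 and -0.64 to 0.26 for Asns. For 12 members the sign turned without knockout replicate 2, and for 7 without knockout replicate 1. The cause was not tested.

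With 3 livers a group, the intervals of 7 of the 8 chaperones were wide enough to hold a fold change of 0 and one of more than 2-fold. Members at a few CPM, such as Derl3 and Chac1, carry counting error as well.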

Other observations

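Chaperones of other compartments were set beside those of the ER. Of 16 cytosolic heat shock genes, which answer to HSF1 and not to the ER sensors, 14 had a log2 fold change above 0 (51.2% of all genes). Their median was 0.31. On total counts 11 were above 0 (21.2% of all genes) with a median of 0.10. On the TPM scales 8 were above 0 (19% and 19.1% of all genes) with a median of 0.004. Without knockout replicate 2 the median was 0.15, and without knockout replicate 1 it was 0.49. Their median deviation was -0.42, 0.41 and 0.28 in knockout replicates 1 to 3, against -0.12, 0.02 and -0.15 in control replicates 1 to 3. On TMM scaling knockout replicate 2 was the highest library for 11 of the 16 (15.3% of all genes). Knockout replicate 1 was the lowest for 11 (14.7% of all genes). These counts were not taken on other scales. Hspa8, the constitutive cytosolic HSP70, stood at 1294, 2257 and 2370 CPM in knockout and 1293, 1384 and 1313 CPM in control livers (log2 fold change 0.57, edgeR adjusted p 0.484). Hspb8, a small heat shock protein, averaged 178 ± 9.70 CPM in knockout and 135 ± 6.42 CPM in control livers (SD, n = 3 each). Its groups did not overlap on TMM scaling, and its edgeR adjusted p was 0.381. The 10 mitochondrial chaperones and proteases stayed closer to 0, at -0.01, 0.05 and 0.23 in knockout livers, against -0.05, -0.16 and 0.07 in control livers. Their median log2 fold change was 0.13, but -0.0811 on total counts and -0.067 and -0.068 on the TPM scales.

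Clock genes, whose RNA follows time of day and feeding, were also listed. Their median log2 fold change was 0.47 (0.25 on total counts, 0.21 on the TPM scales). Of 16 clock genes, 8 were higher and 3 lower in knockout livers at an edgeR unadjusted p under 0.05, against 3.75% and 7% of all genes. None passed the adjusted p, and DESeq2 called 3 of the 16, Cry2, Ciart and Per2. Per2 stood at 15.3, 28.9 and 33.6 CPM in knockout and 15.1, 8.7 and 7.7 CPM in control livers, so that knockout replicate 1 lay next to control replicate 1. The sources used here do not give the hour at which the livers were taken, and its part in the order of the livers was not tested.

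Immediate early genes, which rise during tissue handling, had a median log2 fold change of 0.05 over 12 genes. The median was -0.155 on total counts, -0.17 and -0.19 on the TPM scales and -0.18 without knockout replicate 2. At an edgeR unadjusted p under 0.05, 1 was higher (Junb) and 1 lower (Dusp1), against 3.75% and 7% of all genes. None passed the adjusted p.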
